A study of Arabidopsis thaliana with 12 samples.

Results

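The mitochondrial DNA of Arabidopsis thaliana carries the nad genes, which encode core subunits of respiratory complex I, the NADH dehydrogenase of the inner mitochondrial membrane. They were followed here through 15 probe sets for 8 genes, nad1, nad2, nad4, nad4L, nad5, nad6, nad7 and nad9, out of 22746 probe sets tested and 13350 genes with a probe set of their own. The members are all probe sets for which the platform's probe-to-gene table gives a single gene symbol and that symbol is one of these 8; nad1 had 7 probe sets, nad5 had 2 and each of the other 6 genes had 1. A further 2 probe sets that the table assigns both to nad1 and to a nuclear locus were left out by this rule.

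Leaves of 4-week-old soil-grown Col-0 plants were sprayed and collected 24 hours later, and RNA of each sample was hybridised to an Affymetrix ATH1 array, 12 in all. The 4 groups, with 3 biological replicates each, were Dex:YFP-CPR5-C plants sprayed with 50 µM dexamethasone, Dex:YFP-CPR5-C plants sprayed with water, wild-type plants sprayed with 50 µM dexamethasone, and wild-type plants sprayed with water. The Dex:YFP-CPR5-C line, called CPR5-C below, is in the Col-0 background and expresses the C-terminal part of CPR5, a protein of the nuclear pore, fused to YFP when dexamethasone, a synthetic glucocorticoid, is given; the study describes this fragment as a dominant negative. Wild-type plants lack the whole construct, so effects of the fragment, of YFP and of the inducible system cannot be told apart, and the labels do not say how many transgenic lines were used. No probe set was named for CPR5, so its induction was not checked.

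Complex I takes electrons from NADH, passes them to ubiquinone and pumps protons across the inner membrane. In plants it is assembled from subunits made inside the mitochondrion and a larger number that are encoded in the nucleus and imported. Mitochondrial nad transcripts need extensive maturation: the coding parts of nad1, nad2 and nad5 lie apart in the genome and are joined by trans-splicing, nad4 and nad7 have introns that are spliced in cis, and nad4L, nad6 and nad9 have no introns. The amplification kit named in the labels starts copies at poly(A) tails. In plant mitochondria most mature transcripts are known to lack a long tail, and tails are known to mark RNA for decay, so an altered tailed share and an altered amount of transcript cannot be told apart here. In whole leaves, fewer cells of a type and less RNA per cell cannot be told apart either.

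From each log2 signal the median of its probe set over the 12 arrays had been subtracted before deposit. The values show differences between arrays and carry no level, so nothing is said of which nad gene is more abundant, and leaf marker levels could not be checked. The number of arrays limits the precision. Values given per array below are on this centred log2 scale, changes are differences of group means on the log2 scale with the standard error (SE) of the limma fit over all probe sets, and a probe set was called at a Benjamini-Hochberg adjusted p under 0.05 over all of them.

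The first comparison asked how the nad transcripts respond once the CPR5 fragment is induced. In CPR5-C leaves 10 of the 15 probe sets were higher after dexamethasone than after water, from nad4L (1.64-fold) to nad1 (5.52-fold), and nad2 was lower (1.52-fold). The 10 came from 5 of the 8 genes, nad1, nad4L, nad5, nad6 and nad9. Neither nad4 nor nad7 passed the test, nor did 2 of the nad1 probe sets. Over all probe sets, 23.3% were called higher and 24.6% lower in this comparison, so the 10 of 15 called higher stand against a background of 23.3%; 47.9% were called in either direction. The median change of the 15 probe sets was 0.90, against -0.02 over all probe sets. The arrays of the 2 groups did not overlap for 11 probe sets that were higher and for nad2, where 26.4% and 28.7% of all probe sets were higher or lower without overlap (55.1% together).

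**Figure D1:**
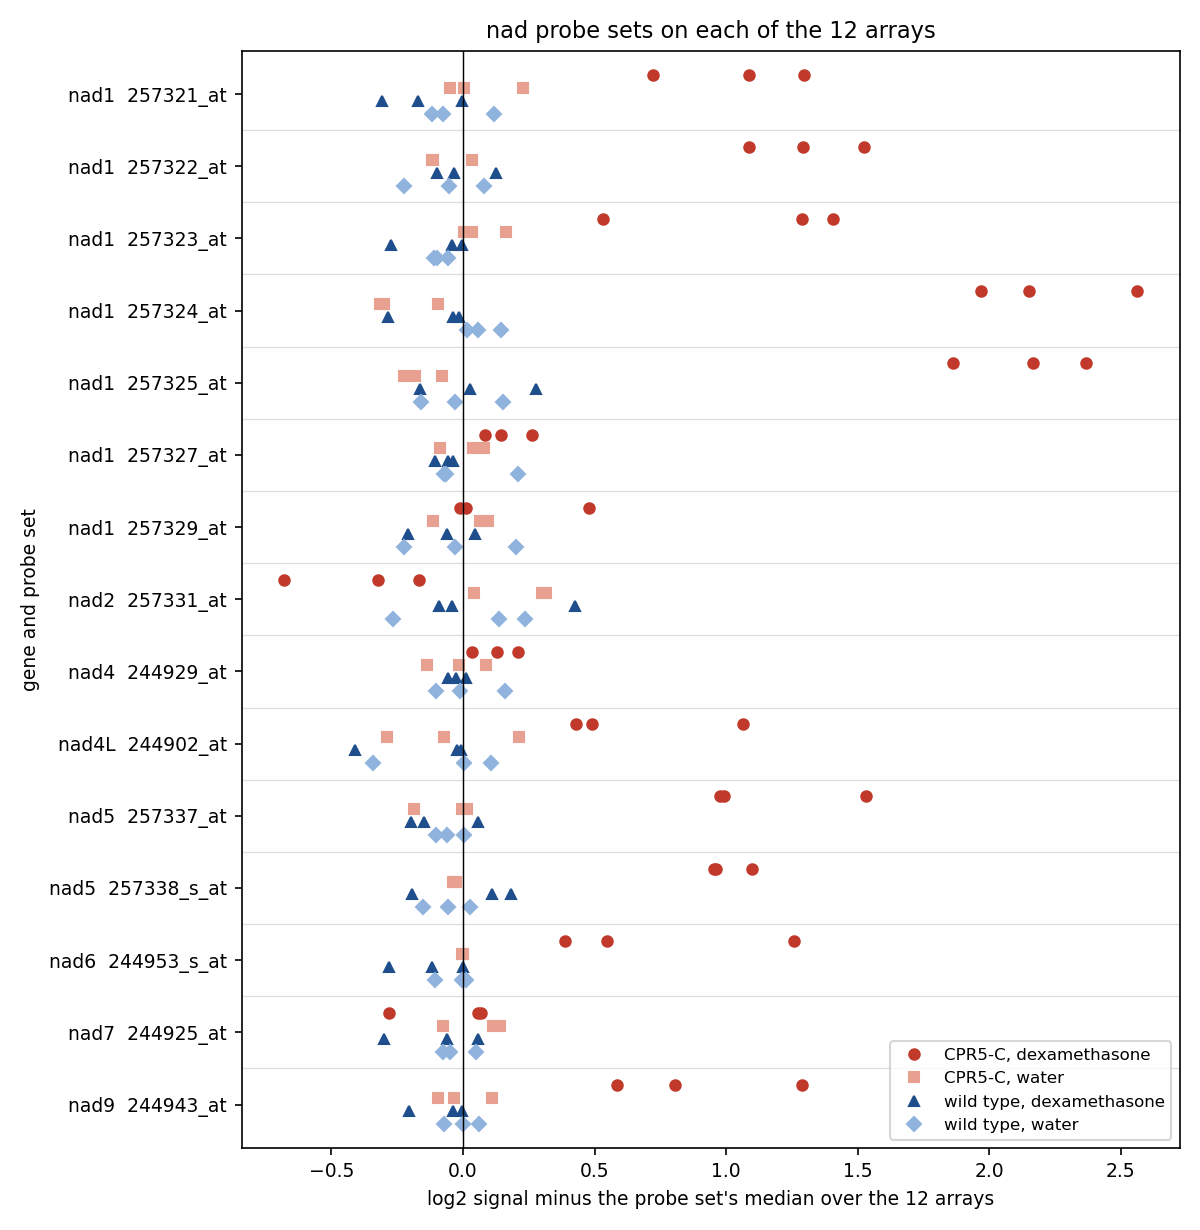
Each point is one array; the horizontal axis gives the log2 signal minus the probe set's median over the 12 arrays, and rows are the 15 nad probe sets with CPR5-C dexamethasone (circles) above CPR5-C water (squares), wild type dexamethasone (triangles) and wild type water (diamonds). The CPR5-C dexamethasone arrays lie to the right of the other 9 for most rows, and reach 2.56 for nad1 257324_at; for nad2 they lie to the left of the CPR5-C water arrays, with 1 wild-type water array, at -0.27, between them.

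The membrane arm of complex I holds the proton-pumping machinery, and nad1 encodes the subunit at its base, next to the ubiquinone site. The nad1 probe set 257324_at was at 2.56, 2.15 and 1.97 on the CPR5-C dexamethasone arrays, against -0.10, -0.32 and -0.30 on the CPR5-C water arrays. On the wild-type arrays it was between -0.28 and -0.01 after dexamethasone and between 0.01 and 0.14 after water. The lowest CPR5-C dexamethasone array thus lay 1.97 above the median of the probe set, and no other array came near it. The change in CPR5-C leaves was 2.46 (SE 0.13, adjusted p = 5.97e-10).

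A second nad1 probe set, 257325_at, was at 2.37, 2.17 and 1.86 in CPR5-C leaves after dexamethasone, against -0.08, -0.18 and -0.22 after water. Its change was 2.30 (SE 0.13), with a 95% interval from 2.02 to 2.57 that overlaps that of 257324_at. A middle group of nad1 probe sets rose less, 257322_at by 1.37 (SE 0.11), 257323_at by 1.01 (SE 0.17) and 257321_at by 0.97 (SE 0.13), with their groups apart as well. The 95% confidence intervals of 257324_at (2.19 to 2.73) and of 257322_at (1.13 to 1.60) did not overlap.

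The remaining nad1 probe sets did not pass the test. For 257327_at the CPR5-C arrays were at 0.26, 0.14 and 0.08 after dexamethasone, against 0.08, 0.04 and -0.09 after water, a change of 0.15 (SE 0.08, adjusted p = 0.158). For 257329_at a single CPR5-C dexamethasone array, replicate 1, stood at 0.48, and the other two lay within 0.012 of 0. Its change was 0.14 (SE 0.13, adjusted p = 0.420). Probe sets that the table gives to the same gene therefore differed in response by more than the errors of this fit, which shares 1 spread over the 4 groups. Probe sequences were not used here, so which exon, intron or neighbouring reading frame each nad1 probe set reads is not known.

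The antiporter-like subunits of the membrane arm are encoded by nad2, nad4 and nad5, and these genes differed from each other. The nad5 probe set 257337_at was at 1.53, 0.99 and 0.98 on the CPR5-C dexamethasone arrays, against values between -0.19 and 0.02 on the CPR5-C water arrays. It rose by 1.23 (2.34-fold, SE 0.13, adjusted p = 1.01e-06). The other nad5 probe set, 257338_s_at, was at 1.10, 0.96 and 0.96 after dexamethasone, against -0.03, -0.04 and -0.03 after water, and rose by 1.04 (2.05-fold, SE 0.09). The 95% interval of the first began at 0.96 and that of the second ran from 0.84 to 1.23, so the intervals overlapped. The suffix of 257338_s_at, which the nad6 probe set 244953_s_at also has, marks probes shared by several transcripts. Nuclear copies of mitochondrial DNA were not separated for any nad probe set.

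For nad4 the CPR5-C arrays were at 0.21, 0.13 and 0.04 after dexamethasone, against -0.01, -0.14 and 0.09 after water, and the groups overlapped. The change of 0.15 (SE 0.08, adjusted p = 0.165) has a 95% interval from -0.03 to 0.32, which lies below that of every nad probe set that rose.

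In contrast, nad2 was lower. Its probe set was at -0.32, -0.68 and -0.17 on the CPR5-C dexamethasone arrays, against 0.30, 0.04 and 0.32 on the CPR5-C water arrays. The change was -0.61 (SE 0.16, 95% interval -0.96 to -0.26, adjusted p = 0.00606). Wild-type arrays ranged widely for nad2, from -0.09 to 0.43 after dexamethasone and from -0.27 to 0.23 after water, so that 1 wild-type water array, at -0.27, fell between CPR5-C dexamethasone replicates 1 and 3. This call depended on how arrays are scaled. When the poly-A spike controls, RNAs added in known amounts before labelling, were used to scale the arrays, the change was -0.20 and was no longer called (adjusted p = 0.250).

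A comparison within arrays does not depend on their scaling. The nad2 signal minus the median of the other 14 nad probe sets of the same array averaged -1.27 ± 0.46 in CPR5-C leaves after dexamethasone and 0.24 ± 0.14 after water (SD, n = 3 each), with no overlap between the arrays. The difference of -1.51 (exact permutation p = 0.1, the smallest possible at this size) is the largest downward shift of any nad probe set relative to the others. For nad7 it was -1.0, for nad4 -0.74, and for the nad1 probe sets 257329_at and 257327_at -0.74 and -0.74. The nad1 probe sets 257324_at and 257325_at moved up by 1.71 and 1.54. Most of the other nad probe sets rose, so a probe set without a change of its own also shifts down in this measure. It shows that nad2 did not rise with most of the others, and cannot show whether nad2 itself fell. Nor can it set nad2 apart from the nad probe sets that did not pass, since these also shifted down. In wild type the same difference for nad2 was 0.10, with overlapping arrays.

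The small membrane subunits are encoded by nad4L and nad6. The nad6 probe set, 244953_s_at, was at 1.26, 0.39 and 0.55 on the CPR5-C dexamethasone arrays, against values between -0.0033 and 0.0006 on the CPR5-C water arrays. It rose by 0.73 (1.66-fold, SE 0.16, adjusted p = 0.00147). Replicate 1 was by far the highest, and without it the change was 0.47 (adjusted p = 0.000636). The nad4L probe set was at 1.06, 0.43 and 0.49 after dexamethasone, against -0.29, -0.07 and 0.21 after water. It rose by 0.71 (SE 0.18, adjusted p = 0.00357), and again replicate 1 stood above the others.

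The hydrophilic arm reaches into the matrix, and nad7 and nad9 encode subunits there that lie between the NADH-oxidising tip and the membrane. The nad9 probe set was at 1.29, 0.80 and 0.58 on the CPR5-C dexamethasone arrays, against -0.09, -0.03 and 0.11 on the CPR5-C water arrays. It rose by 0.90 (1.86-fold, SE 0.13, adjusted p = 5.01e-05). For nad7 the CPR5-C arrays were at -0.28, 0.07 and 0.06 after dexamethasone, against 0.14, 0.11 and -0.08 after water. They overlapped, and the change of -0.11 (SE 0.11, adjusted p = 0.447) has a 95% interval from -0.34 to 0.12. The 95% interval of nad9 (0.61 to 1.19) lies wholly above that of nad7.

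**Figure D2:**
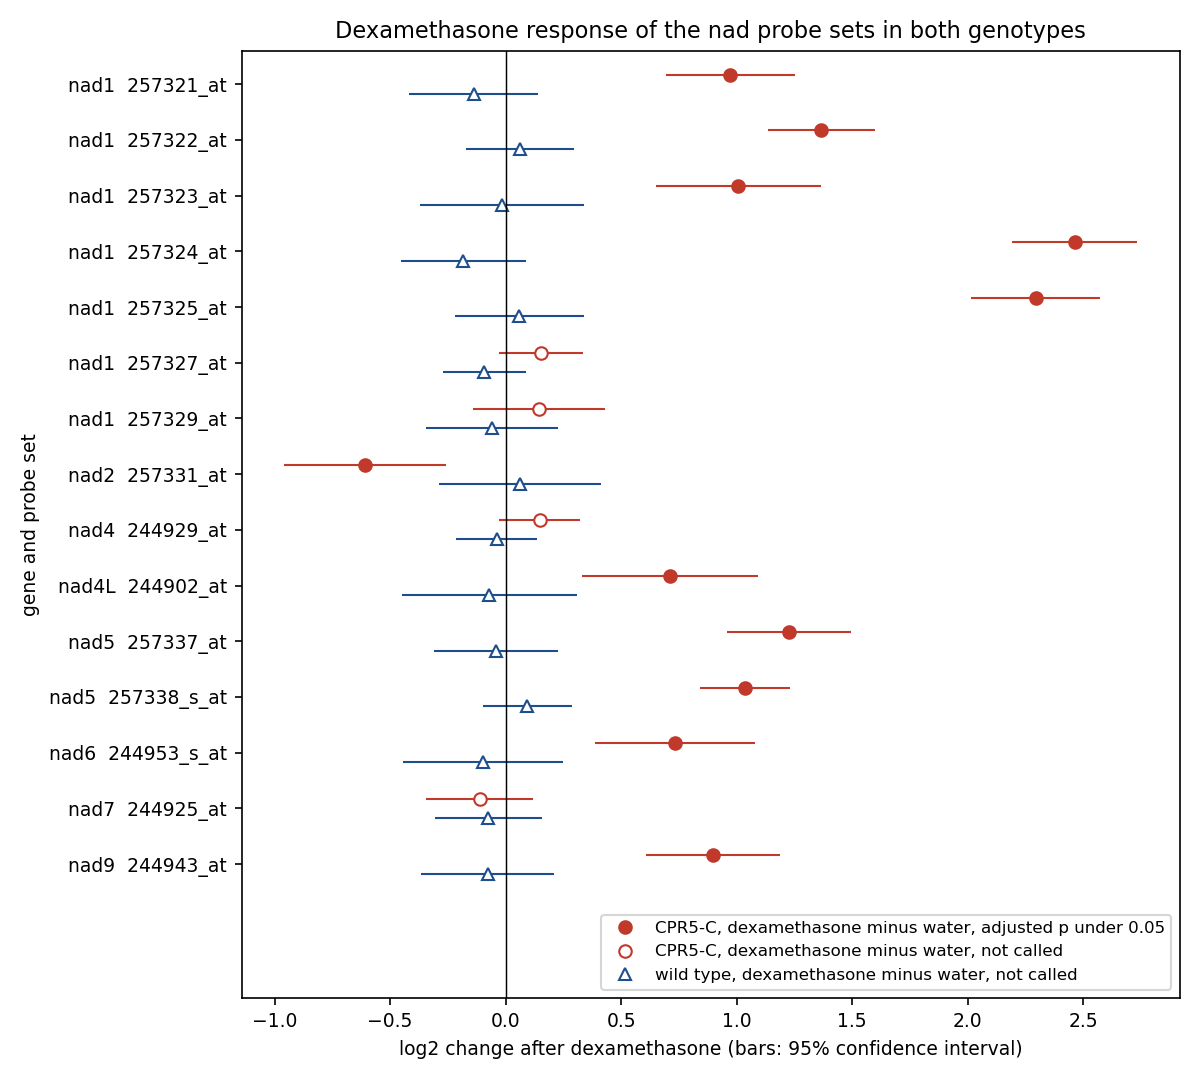
Points are log2 changes, dexamethasone minus water, with 95% confidence intervals as bars, for the CPR5-C line (circles) above wild type (triangles); filled symbols were called at adjusted p under 0.05. CPR5-C changes run from -0.61 for nad2 to 2.46 for nad1 257324_at, and the interval of every wild-type change includes 0.

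Both arms of the enzyme held genes that rose and genes that did not pass. Neighbours in the mitochondrial genome included like and unlike responses. In the gene order of the TAIR10.1 annotation, nad6, which rose, is the next named protein gene after nad2. The nad2 probe set was called lower, a call that did not hold with spike scaling. In that order nad5, which rose, comes just before nad7, which did not pass. The same order places matR before nad5 and cox1 after nad1, and these 4 genes had probe sets that rose. This order gives each gene 1 position, although the coding parts of nad1, nad2 and nad5 lie apart in the genome. The neighbours of the other parts of these genes were not looked at. No test of neighbourhood was made. The genes were then grouped by their introns, after the values had been seen. All 3 genes without introns rose, and neither of the 2 genes with cis-spliced introns only was called. Of 10 probe sets for the 3 trans-spliced genes 7 rose and 1, that of nad2, was called lower. With 8 genes this grouping is a description.

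The CPR5-C dexamethasone replicates differed in size of response. Replicate 1 was the highest of the 3 for 11 of the 15 probe sets, and the mean over all 15 was 1.02 on replicate 1, 0.78 on replicate 2 and 0.65 on replicate 3. On the other 9 arrays that mean stayed between -0.10 and 0.01. The mean of the 8 probe sets for other mitochondrial genes followed the same order, with 0.77, 0.70 and 0.51. Leaving out any of the 12 arrays kept 10 nad probe sets called higher and 1 called lower in this comparison.

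Leaves without the construct show what the steroid spray alone does. None of the 15 nad probe sets was called in wild-type leaves after dexamethasone by limma, against 9.08% of all probe sets (5.07% higher and 4.01% lower), and 0 had an unadjusted p under 0.05. The changes ran from -0.18 for nad1 257324_at to 0.09 for nad5 257338_s_at. Their 95% intervals reached from -0.45 to 0.41 at the widest. For 257324_at, the probe set with the largest rise in CPR5-C leaves, the wild-type dexamethasone arrays all lay below the wild-type water arrays, without a call (adjusted p = 0.456), where 10.6% of all probe sets were lower without overlap and 26.2% were apart in either direction. The nad2 change was 0.06 (SE 0.16) and the nad9 change -0.08 (SE 0.13).

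Whether CPR5-C and wild-type leaves differed in their response was tested by the interaction of genotype and spray. It was positive for the 10 probe sets of nad1, nad4L, nad5, nad6 and nad9 named above, against 18.1% of all probe sets, and negative for nad2, against 20.4% (38.5% in either direction). The largest differences were those of nad1, 2.65 (SE 0.18) for 257324_at and 2.24 (SE 0.18) for 257325_at, and nad5 differed by 1.27 (SE 0.18) and 0.94 (SE 0.13). The difference was 0.98 for nad9 (SE 0.19), 0.83 for nad6 (SE 0.23) and 0.78 for nad4L (SE 0.25, adjusted p = 0.0223). For nad2 it was -0.67 (SE 0.23, adjusted p = 0.0320).

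Neither of the last calls held in every fit with an array left out. The nad4L call was lost without CPR5-C dexamethasone replicate 1 (0.58), CPR5-C water replicate 1 (0.66), wild-type dexamethasone replicate 3 (0.65) or wild-type water replicate 2 (0.69). The nad2 call was lost without CPR5-C dexamethasone replicate 2 (-0.53), CPR5-C water replicate 1 (-0.63) or 3 (-0.62), wild-type dexamethasone replicate 1 (-0.51) or wild-type water replicate 2 (-0.52). It was also lost with array weights (-0.54) and with spike scaling (-0.09). For nad4, nad7 and the nad1 probe sets 257327_at and 257329_at the interaction did not pass, with changes of 0.19, -0.04, 0.25 and 0.20 and SE of 0.12 to 0.19. The widest of their 95% intervals ran from -0.20 to 0.60. Spike scaling raised all 4 of these past the threshold, to 0.77, 0.55, 0.83 and 0.79, while the median over all probe sets moved to 0.59.

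After dexamethasone the CPR5-C leaves were also set against wild-type leaves with the same spray, a comparison that shares the CPR5-C dexamethasone arrays with the first one. Here 11 nad probe sets were higher (23.3% of all probe sets) and nad2 was lower (24.1%), where 47.4% were called in all. The arrays did not overlap for 12 that were higher and for nad2, against 27.1% of all probe sets higher, 27.1% lower and 54.1% together. Beside the same 10 came 257327_at of nad1, at 0.26, 0.14 and 0.08 in CPR5-C leaves and -0.06, -0.11 and -0.04 in wild-type leaves. Its difference of 0.23 (SE 0.08, adjusted p = 0.0347) was not called once any of CPR5-C dexamethasone replicates 1 (0.18) and 2 (0.24) or wild-type dexamethasone replicates 1 (0.24), 2 (0.21) and 3 (0.25) was left out. The difference for nad2, -0.49 (SE 0.16, adjusted p = 0.0228), was not called without CPR5-C dexamethasone replicate 2 (-0.34) or wild-type dexamethasone replicate 1 (-0.32), and was 0.03 with spike scaling.

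Without induction, no nad probe set was called between CPR5-C and wild-type leaves after water by limma, against 7.08% of all probe sets (4.25% higher and 2.83% lower), and 1 had an unadjusted p under 0.05. This was 257324_at of nad1, at -0.10, -0.32 and -0.30 in CPR5-C leaves and 0.01, 0.14 and 0.06 in wild-type leaves (-0.31, SE 0.13, adjusted p = 0.183), lower without overlap as were 10.4% of all probe sets. Another nad1 probe set, 257323_at, was higher without overlap, as were 14.5% of all probe sets, and was not called (0.16, SE 0.17, adjusted p = 0.691). Arrays were apart in either direction for 24.9% of all probe sets. The differences of all but 257324_at lay between -0.15 and 0.18.

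Array scaling bears on all comparisons with the CPR5-C dexamethasone arrays. Averaged over 24 poly-A spike probe sets, these arrays stood at -0.59 to -0.09, and the CPR5-C water arrays at -0.05 to 0.08. The other 9 arrays together ran from -0.14 to 0.27. The highest CPR5-C dexamethasone array, replicate 3, thus lay within their range. Scaled to the spikes, the median change of all probe sets in CPR5-C leaves was 0.39, 58.7% of all probe sets were called higher, and 13 of the 15 nad probe sets were higher and 0 lower. The nad median became 1.31, and the distance between the nad median and the median of all probe sets was not changed by this scaling. With each array centred on its median instead, the same 10 and 1 probe sets were called.

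Other measures moved with the same arrays. For the actin control, the 3' minus 5' difference ran from -0.26 to -0.16 in CPR5-C leaves after dexamethasone, against -0.06 to 0.14 on the other 9 arrays. For the GAPDH control it ran from -0.09 to 0.20 on the CPR5-C dexamethasone arrays, against -0.09 to 0.08 on the rest, and so overlapped. For the ubiquitin control it ran from -0.20 to -0.05 on the CPR5-C dexamethasone arrays, against -0.05 to 0.04 on the rest, lower without overlap as for actin. The 25S ribosomal RNA control was at -0.53 to -0.47 on the CPR5-C dexamethasone arrays, against -0.15 to 0.20 on the rest. Of 6 listed markers of other leaf cell types, 3 were measured. In CPR5-C leaves SWEET11 of the phloem rose (0.51) and the guard cell genes FMA (-0.28) and AT1G22690 (-3.06) fell. In wild-type leaves after dexamethasone 1 of the 3 was called lower, against 4.01% of all probe sets. With spike scaling 1 of these 3 was called lower, where 8.16% of all probe sets were. The part of these measures and markers in the nad response was not tested.

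**Figure D3:**
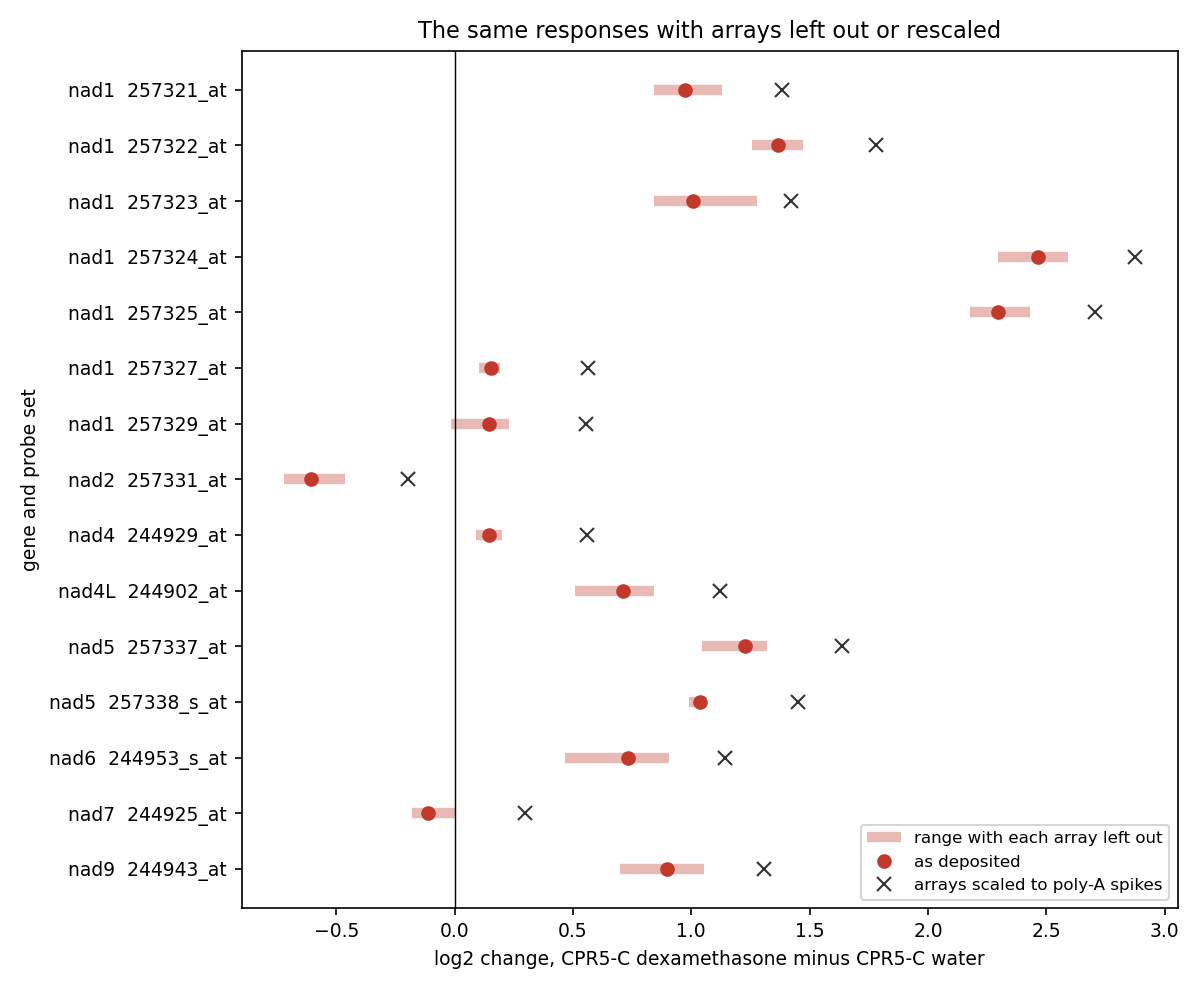
Log2 changes of each nad probe set in CPR5-C leaves, dexamethasone minus water, as deposited (circles), as a range with each of the 12 arrays left out (bars) and with arrays scaled to the poly-A spikes (crosses). The bars of the 10 probe sets that rose stay above 0 and that of nad2 stays below 0, while spike scaling moves nad2 from -0.61 to -0.20.

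The nad genes were next set beside other genes of the same DNA and of the same enzyme. For these and the following lists, 23.3% of all probe sets were called higher and 24.6% lower in CPR5-C leaves. The 8 probe sets for other mitochondrially encoded genes had a median change of 0.52 in CPR5-C leaves, and 6 of 8 were higher and 0 lower. They included cox2, a subunit of cytochrome c oxidase (1.47, SE 0.12), ccb452 of cytochrome c maturation (1.42, SE 0.14) and cox1 (0.68, SE 0.09). The maturase gene matR, which lies within an intron of nad1, rose by 0.36 (SE 0.07), less than the 5 nad1 probe sets that rose. None of the 8 was called in wild type by limma, against 9.08% of all probe sets, and 0 had an unadjusted p under 0.05.

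Of 41 loci listed for nuclear-encoded subunits of complex I, 25 were measured. In CPR5-C leaves 24 of these rose, against 23.3% of all probe sets, and 0 fell. Their median change was 0.44, with a range from 0.03 to 0.85. FRO1, a subunit of the hydrophilic arm whose loss is known to impair cold-responsive gene expression, rose 1.80-fold (0.85, SE 0.06). The listed subunits AT4G00585 (0.79), AT2G42310 (0.74), AT5G52840 (0.68) and AT3G57785 (0.59) followed among those with the smallest p. The nuclear-encoded subunits lay closer together than the nad probe sets, whose changes ran from -0.61 to 2.46. In wild type 0 of 25 were called by limma, against 9.08% of all probe sets, and 0 had an unadjusted p under 0.05.

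Among the 20 probe sets for nuclear-encoded parts of complexes II to V, 15 rose in CPR5-C leaves, against 23.3% of all probe sets. Of the 20, 0 fell, and their median change was 0.43. SDH2-1, the iron-sulphur subunit of succinate dehydrogenase, rose 2.30-fold (1.20, SE 0.08) by one probe set, while its other probe set was at 0.14 and did not pass (adjusted p = 0.305), and its relative SDH2-2 rose by 0.73 (SE 0.06) and the electron carrier CYTC-1 by 0.79 (SE 0.06). AT5G25450 (1.03) and AT4G37830 (0.60), listed for complexes III and IV, rose too.

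Type II NAD(P)H dehydrogenases can pass electrons to ubiquinone without complex I and without pumping protons. Of 5 that were measured, NDB2, which faces the intermembrane space and is known to respond to mitochondrial stress, rose 3.81-fold in CPR5-C leaves (1.93 on the log2 scale, SE 0.09) and 1.34-fold in wild-type leaves (0.43, SE 0.09, adjusted p = 0.00715). These responses differed by 1.50 (SE 0.13, adjusted p = 3.00e-07 for the interaction). NDC1 was lower in CPR5-C leaves (-0.64, SE 0.06), and NDB1 (0.27), NDB3 (0.01) and NDB4 (-0.04) did not pass. With spike scaling 4 of the 5 were called higher and 0 lower in CPR5-C leaves, and 0 were called in wild-type leaves. That scaling called 58.7% of all probe sets higher and 8.16% lower in CPR5-C leaves, and 4.34% in either direction in wild type. The alternative oxidases had no named probe set and were not analysed here.

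Of 10 measured nuclear factors of mitochondrial transcription, splicing and editing, 0 were called higher and 1 lower in CPR5-C leaves, AT5G15700 (-0.34, SE 0.08). The next smallest p-values were those of AT3G48810 (-0.17), AT5G04050 (0.13), OTP87, an editing factor (0.09), and AT4G11690 (0.08), and none of these passed. The median of these 10 was 0.00. With spike scaling 7 of the 10 were called higher and 0 lower, and their median was 0.42. Over all probe sets the same scaling gave 58.7% called higher, 8.16% lower and a median of 0.39. Of 2 measured genes listed for mitochondrial stress signalling, AT2G21640 was lower (-0.29, adjusted p = 0.0261) and AT5G09570 did not pass (0.10). With spike scaling 1 of the 2 was called higher and 0 lower.

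The plastid genome encodes relatives of the nad genes, the ndh genes, whose products form an NDH complex in the thylakoid membrane. They moved the other way from most nad probe sets. The nad2 probe set, which was called lower (-0.61), changed in the same direction as the ndh genes. The median change of 10 ndh probe sets in CPR5-C leaves after dexamethasone was -0.61. Of these, 0 were higher and 8 were lower, against 24.6% of all probe sets. Among them were ndhH (-0.94, SE 0.18), ndhJ (-0.80, SE 0.09), ndhK (-0.63, SE 0.10), ndhD (-0.62, SE 0.08) and ndhA (-0.50, SE 0.07). Some of the relatives compare as follows on the same arrays. The nad1 changes were 0.14 to 2.46 and that of ndhA was -0.50. Those of nad5 were 1.04 and 1.23 and that of ndhF was -0.19 (adjusted p = 0.0977). For nad7 the change was -0.11 and for ndhH -0.94, and for nad9 it was 0.90 and for ndhJ -0.80. Relatives of nad2, nad4, nad4L and nad6 are not paired here. Averaged over the 10 ndh probe sets, the CPR5-C dexamethasone arrays stood at -0.51 to -0.38 and the other 9 at -0.06 to 0.18. With spike scaling 3 of the 10 were called lower and the median was -0.20. Over all probe sets that scaling called 8.16% lower, with a median of 0.39.

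**Figure D4:**
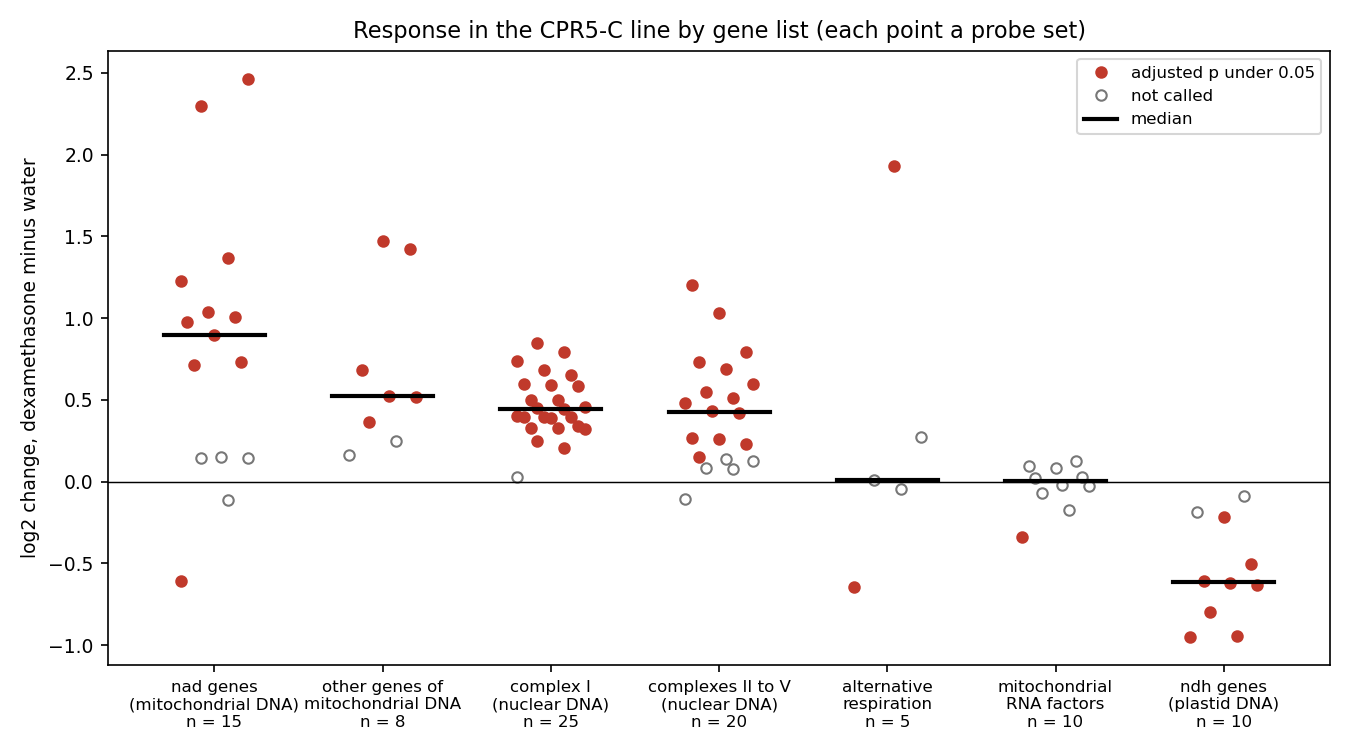
Log2 changes in CPR5-C leaves, dexamethasone minus water, of the probe sets of 7 gene lists; filled points were called at adjusted p under 0.05, open points were not, and bars are medians. The medians were 0.90 for the nad genes, 0.52 for other mitochondrially encoded genes, 0.44 for nuclear-encoded complex I and -0.61 for the plastid ndh genes.

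The probe sets most like each nad probe set over the 12 arrays were sought among 13498 other single-gene probe sets, by the root mean square difference of their values around each mean. For nad9 this was the autophagy gene ATG8H, with a difference of 0.07 where nad9 itself varied by 0.43 around its mean. For nad5 257338_s_at it was AT5G55290 (0.08, against 0.46) and for nad1 257324_at it was AT5G15190 (0.13, against 1.02). For nad6 it was CHAT, an acetyltransferase of green-leaf volatile synthesis (0.15, against 0.40), and for nad2 it was AT3G13030 (0.13, against 0.31). Each of the 15 nearest genes had a nuclear locus. Only 8 of the 13498 candidates were probe sets for other mitochondrial genes, so this count says little about the nad genes. Among the nad probe sets, the closest pair with a called response was nad6 and nad9 (0.13), and the farthest was nad1 257324_at and nad2 (1.26).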

How the data were processed

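The deposited values are log2 signals of Affymetrix ATH1 arrays. The submitters' processing notes name RMA, with no version or settings. RNA was extracted with TRIzol and labelled with the MessageAmp Premier kit, per the labels' protocols. Every probe set had a median of 0 over the 12 arrays (tolerance 1e-06), so the authors had centred it. The log base follows from RMA and from spans of up to 9.28.

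After 64 control probe sets were left out, limma 3.58.1 in R 4.3.3 (lmFit, eBayes) fitted 1 mean for each of the 4 groups to 22746 probe sets over the 12 arrays, with Benjamini-Hochberg adjustment within each of 5 comparisons. It was tested on simulated data first. P-values measure the spread between replicates that the labels call biological. That spread is 1 estimate per probe set, shared by the 4 groups. For most nad probe sets, and for most of those called higher, the CPR5-C dexamethasone arrays spread more than the other groups. For nad1 257324_at their SD was 0.30, against 0.07 to 0.15. For nad6 their SD was 0.46, against 0.002 to 0.14, and for nad1 257323_at 0.47, against 0.03 to 0.145. For others, such as nad2 and nad4, they did not. Where they did, SE and intervals of changes with these arrays may be too small. Of the probe sets 13513 had a single gene in the platform table; mitochondrial genes were matched by symbol, others by gene identifier to TAIR10.1. Figures used matplotlib 3.10.9.

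The members and lists were chosen with earlier results of these data known. All nad probe sets are named, with up to 5 probe sets of smallest p from each list and the nearest profile of each nad probe set (the text gives some of these). Alternatives were a replicate block (fixed or random), only the groups compared, median centring, spike scaling, a trended robust variance, array weights, single-gene probe sets only, adjusted p under 0.01, and each array left out.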

Additional observations from a re-analysis of the deposited data

Results flagged for a closer look

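The response to dexamethasone differed between CPR5-C and wild-type leaves, by the interaction test of the limma fit, for 11 nad probe sets. The same test called 38.5% of all probe sets, 18.1% higher and 20.4% lower. For nad1 the difference was 1.11 (257321_at), 1.30 (257322_at), 1.02 (257323_at), 2.65 (257324_at) and 2.24 (257325_at). For nad5 it was 1.27 (257337_at) and 0.94 (257338_s_at), for nad9 0.98, for nad6 0.83 and for nad4L 0.78. The nad2 difference, -0.67, had the opposite sign. No group had enough arrays for a test of single outlying arrays.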

How the results depend on the processing

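In CPR5-C leaves 10 nad probe sets were called higher and 1 lower with any array left out. For the interaction these counts ranged from 9 to 10 higher and from 0 to 1 lower, and for CPR5-C against wild type after dexamethasone from 10 to 11 and from 0 to 1. Wild type after dexamethasone and both genotypes after water had 0 calls throughout the alternatives run. The count of lower calls, which is nad2, became 0 with spike scaling in all 3 comparisons with calls, with array weights for the interaction, and at adjusted p under 0.01 for the interaction and for the genotypes after dexamethasone. Among changes called with or without it, spike scaling turned the sign of nad7 for the interaction (0.55, adjusted p = 0.0289). The same holds for nad2 between the genotypes after dexamethasone (0.033, adjusted p = 0.849). Spike scaling also turned the sign of changes not called in either fit, such as that of nad7 in CPR5-C leaves. It gave list medians in CPR5-C leaves of 0.93 for other mitochondrial genes, 0.85 for nuclear complex I, 0.84 for complexes II to V, 0.42 for alternative respiration (4 higher, 0 lower), 0.32 for stress signalling (1 higher, 0 lower), 0.42 for RNA factors (7 higher, 0 lower), 0.13 for cell type markers (1 lower) and -0.20 for ndh genes (3 lower). In wild type it left 0 calls higher in complexes II to V and in alternative respiration, and 1 lower among ndh genes. Over all probe sets the scaling gave a median of 0.39 in CPR5-C leaves, with 58.7% called higher and 8.16% lower. In wild type it called 0.576% higher and 3.76% lower. The scaling adds the same amount to every probe set of an array. Same-numbered arrays of different groups had correlations of their deviations from the group means between -0.21 and 0.36, 2 of 18 above 0.1, and 3 of 12 arrays were closest to their own number, so the numbers were not taken as pairs. With the replicate block the nad2 change in CPR5-C leaves stayed at -0.61 (adjusted p = 0.000692 as a fixed and 0.0109 as a random block), and the block changed no call of a nad probe set. No background correction or detection filter could be varied on centred values.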
